A study of Homo sapiens with 12 samples.

Results

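The 10 genes described here encode the structural core of the desmosome and the cadherin-catenin complex of the adherens junction. They were chosen by name from the 34595 identifiers of an expression table: the desmosomal plaque genes JUP, DSP, PKP2 and PKP3, the desmosomal cadherins DSG2 and DSC2, the plakins PPL and EVPL, and the adherens junction genes CDH1 and CTNND1. All 10 were found, and all 10 were among the 19670 genes that passed a filter on dim values (3 or more arrays had to exceed 6.82, the overall median). RNA came from ECC1, an established human endometrial cancer cell line, measured on Illumina whole-genome BeadArrays. The 4 groups held 3 arrays each: parental ECC1 cells untreated, parental cells given estradiol, ECC1 cells with the MTDH gene knocked out and untreated, and knockout cells given estradiol. Estradiol was given at 10 nM for 24 h. Cells of both lines had first been kept for 24 h in RPMI1640 with 5% serum stripped of steroids by charcoal. The knockout is represented by a single line, so a difference between lines holds the loss of MTDH together with anything else that sets that line apart. Nothing in the labels says that replicates came from separate cultures; p-values therefore measure only the spread between these arrays, which may be technical.

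Desmosomes join the keratin filaments of neighbouring epithelial cells. Desmogleins and desmocollins bind each other between the cells, plakoglobin (JUP) and the plakophilins bind their tails inside the cell, and desmoplakin (DSP) connects this plaque to keratin. Adherens junctions are built in a similar way on E-cadherin (CDH1), with p120-catenin (CTNND1) holding the cadherin at the surface and the catenins linking it to actin; plakoglobin belongs to both junctions. In the endometrium these junctions hold together an epithelium that is remodelled under estrogen and progesterone. MTDH (metadherin) is a membrane-associated protein studied in several cancers.

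Values are log2 expression levels as deposited, with array medians between 6.78 and 6.86 and upper quartiles within 0.197 of one another. On an array each gene is read by its own probes, so levels were compared between samples and not between genes. MTDH read 10.78 to 11.43 in untreated parental cells and 8.53 to 8.59 in untreated knockout cells. Against this, MTDH was at 8.97 on the array labelled parental estradiol replicate 3 and at 10.94 on the one labelled knockout estradiol replicate 1. Labels were kept, and the main results are given for all 12 arrays and for the 10 arrays without these. The keratin gene KRT8 (12.3 to 13.3) and the adhesion gene EPCAM (12.2 to 13.1) marked the cells as epithelial, while KRT18 (6.83 to 6.98) and CLDN4 (6.87 to 7.52) lay near the array medians. The fibroblast genes PDGFRA, PDGFRB, LUM and DCN, the endothelial genes PECAM1, CDH5 and KDR and the immune genes PTPRC and CD3E did not pass the filter.

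Estradiol lowered 4 of the 10 genes when its effect was averaged over both lines, JUP, PPL, DSP and CDH1, and 0 rose. With 3 arrays in each group, the value of this average is the same whichever line an estradiol array is assigned to, so exchanging the line labels of the 2 arrays would leave it as it is, while leaving those arrays out can change it. In the limma fit of all 12 arrays, 8.76% of all genes tested fell in this comparison at an adjusted p under 0.05 (Benjamini-Hochberg over all genes), and 4 of 10 members did. In the fit of 10 arrays the background was 11.8% and 6 members fell, EVPL and PKP2 joining. The median log2 difference of the members was −0.22 in the first fit and −0.21 in the second, beside −0.034 and −0.041 over all genes tested. After quantile normalization of the arrays the members' medians were −0.13 in both fits, and those of all genes −0.00010 and −0.00040. The same scaling changed the balance of calls over all genes: with 12 arrays 363 rose and 1723 fell, and after quantile normalization 846 rose and 1021 fell. Of the members 4 fell and 0 rose after it in both fits. Since the members were chosen with earlier results of these data known, these counts describe the genes and are no independent evidence.

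JUP, whose product plakoglobin sits in both desmosomes and adherens junctions, read 9.37, 9.38 and 9.18 on the 3 untreated parental arrays and 8.47, 8.41 and 8.41 with estradiol. In knockout cells it read 9.17, 9.14 and 8.98 untreated and 8.30, 8.46 and 8.27 with estradiol. The 6 estradiol arrays all lay below the 6 untreated arrays, as did those of DSP and PPL; among all genes tested, 3.18% had their 6 estradiol arrays below their 6 untreated arrays. Averaged over lines, JUP fell by 0.82 ± 0.054 on the log2 scale (SE; limma adjusted p = 7.04e-07), a 1.76-fold lower level, and by 0.80 ± 0.061 without the 2 arrays (adjusted p = 1.14e-07). The call held in each of the 12 fits that left out 1 array.

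PPL encodes periplakin, a plakin that binds keratin and vimentin filaments and belongs to the desmosomal plaque of stratified cells and the cornified envelope. It read 9.60, 9.51 and 9.11 in untreated parental cells and 8.53, 8.57 and 8.64 with estradiol. In the knockout line it read 9.47, 9.32 and 9.50 untreated and 8.61, 8.67 and 8.53 with estradiol. The estradiol arrays of both lines lay between 8.53 and 8.67, apart from the untreated arrays, which began at 9.11. PPL fell by 0.83 ± 0.073 (adjusted p = 1.10e-05, 1.78-fold), and by 0.85 ± 0.079 without the 2 arrays (adjusted p = 1.08e-06). This call, too, held in each of the 12 fits that left out 1 array.

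DSP, which ties the desmosomal plaque to keratin, read 9.41, 9.38 and 9.26 in untreated parental cells and 8.88, 8.91 and 8.64 with estradiol. In knockout cells it read 9.12, 9.01 and 8.98 untreated and 8.81, 8.55 and 8.44 with estradiol. Estradiol arrays were lower in both lines. Before estradiol the 3 knockout values were all under the 3 parental values, but how many of all genes tested separate this way was not counted. The estradiol array with the lowest DSP among those labelled parental was replicate 3, and the highest among those labelled knockout was replicate 1, which are the arrays that went against their labels. Averaged over lines, DSP fell by 0.49 ± 0.069 (adjusted p = 0.000500, 1.40-fold) with estradiol, and by 0.50 ± 0.054 without the 2 arrays (adjusted p = 5.72e-06).

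CDH1, the gene for E-cadherin, read 12.84, 12.69 and 12.42 in untreated parental cells and 12.38, 12.47 and 12.56 with estradiol, where the ranges overlapped. In knockout cells it read 12.80, 12.69 and 12.64 untreated and 12.36, 12.32 and 12.14 with estradiol. Averaged over lines, CDH1 fell by 0.31 ± 0.069 (adjusted p = 0.0117, 1.24-fold), and by 0.35 ± 0.072 without the 2 arrays (adjusted p = 0.00281). The averaged calls of DSP and CDH1 held in each of the 12 fits that left out 1 array.

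**Figure D1:**
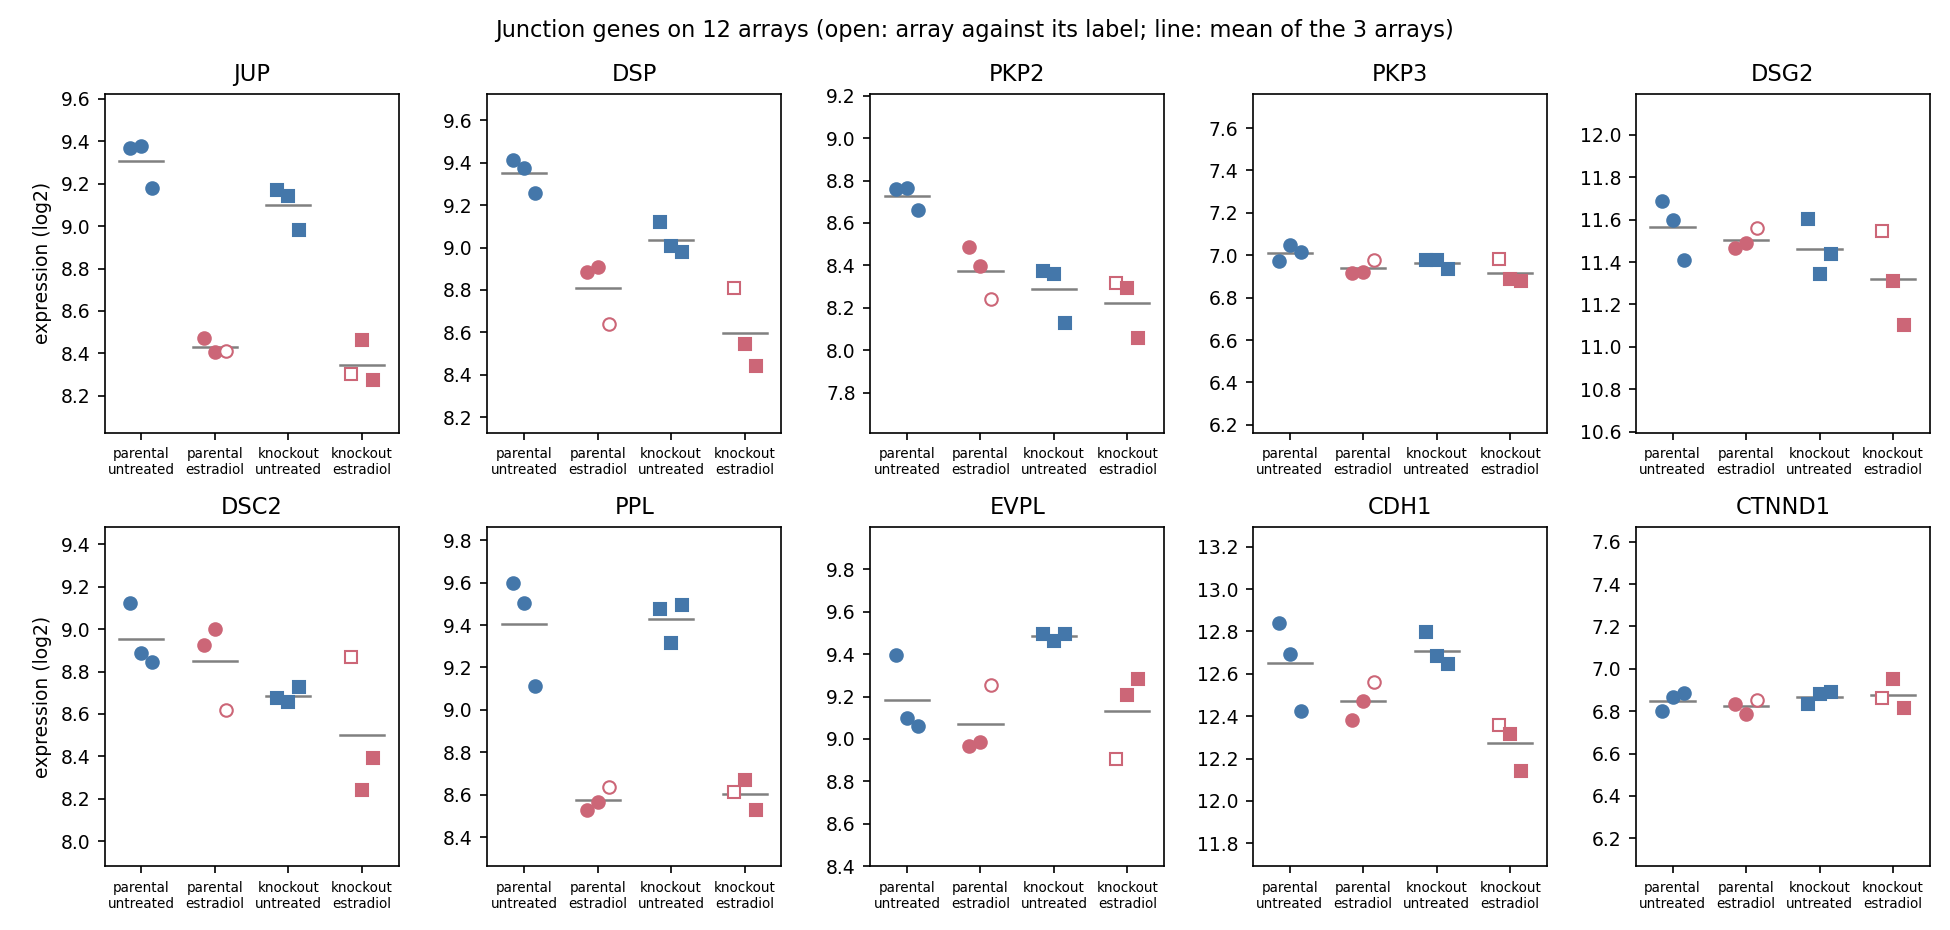
Expression (log2, y axis) of the 10 junction genes on each of the 12 arrays, grouped by line and treatment on the x axis; circles are arrays labelled parental, squares arrays labelled knockout, blue untreated and red estradiol, and the grey line is the mean of 3 arrays. Open symbols are the 2 arrays whose MTDH went against their labels; each y axis spans the same log2 range. JUP and PPL drop to about the same level in both lines with estradiol, JUP to 8.27 to 8.47 and PPL to 8.53 to 8.67.

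Promoter windows from RefSeq (build GRCh38.p14), from 250 bases before to 50 after a start site, were matched by symbol for JUP, DSP, DSC2 and DSG2, 6 windows in all. They are shown for JUP and DSP, which fell with estradiol in both lines, and for DSC2, which differed between the lines in the fit of 10 arrays but in no line comparison of the fit of 12. Capitals mark matches on either strand to CAGGTG or CACCTG, the E-box form bound by repressors of the SNAI and ZEB type, and to GGTCA or TGACC, the core of the estrogen response element. A match is a description of these letters and not a binding site.
JUP window at chr17:41786662-41786961, minus strand: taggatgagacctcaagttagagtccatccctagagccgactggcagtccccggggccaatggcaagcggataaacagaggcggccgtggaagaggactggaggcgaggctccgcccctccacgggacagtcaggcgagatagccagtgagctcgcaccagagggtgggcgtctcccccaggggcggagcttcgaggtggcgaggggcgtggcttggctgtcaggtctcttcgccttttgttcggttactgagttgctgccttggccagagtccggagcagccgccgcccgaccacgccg
JUP second window at chr17:41785927-41786226, minus strand: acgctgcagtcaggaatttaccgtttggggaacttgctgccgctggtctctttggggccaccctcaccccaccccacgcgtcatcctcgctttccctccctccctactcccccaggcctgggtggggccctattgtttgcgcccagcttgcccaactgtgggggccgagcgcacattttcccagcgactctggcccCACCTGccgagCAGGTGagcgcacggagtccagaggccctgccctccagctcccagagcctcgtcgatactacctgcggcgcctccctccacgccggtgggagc
DSP window at chr6:7541421-7541720, plus strand: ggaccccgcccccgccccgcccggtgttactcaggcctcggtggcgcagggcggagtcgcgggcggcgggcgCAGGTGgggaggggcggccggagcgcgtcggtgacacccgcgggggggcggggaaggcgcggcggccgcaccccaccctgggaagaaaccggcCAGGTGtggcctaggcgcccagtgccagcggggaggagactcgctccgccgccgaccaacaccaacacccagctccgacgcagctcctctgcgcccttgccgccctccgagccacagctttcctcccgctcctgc
DSC2 window at chr18:31102372-31102671, minus strand: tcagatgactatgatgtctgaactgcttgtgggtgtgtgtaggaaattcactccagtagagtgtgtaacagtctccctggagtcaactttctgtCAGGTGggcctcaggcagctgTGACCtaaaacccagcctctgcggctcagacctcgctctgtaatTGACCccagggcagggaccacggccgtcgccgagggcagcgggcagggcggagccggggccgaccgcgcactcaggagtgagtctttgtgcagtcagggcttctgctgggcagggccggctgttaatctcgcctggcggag
The E-box was found 0 times in the first JUP window, 2 times in the second, 2 times for DSP and 1 time for DSC2. The DSG2 window at chr18:31497927-31498226 (plus strand) held it 2 times. Of all 35116 windows of this length, 20.59% held at least 1. The GGTCA core was found 2 times in the DSC2 window shown, 1 time in a second DSC2 window at chr18:31101211-31101510 (minus strand) and 0 times in the windows of JUP, DSP and DSG2, against 37.38% of all windows with at least 1. The complete palindromic estrogen response element (0.06% of all windows) and the grainyhead site AACCGGTT (0.13%) were found in 0 of the 6 windows.

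Within the parental line, estradiol lowered 4 members, JUP, PPL, DSP and PKP2, against 5.87% of all genes tested that fell in the same 12-array fit (221 rose and 1155 fell, or 415 and 471 after quantile normalization). JUP fell by 0.88 ± 0.076 (adjusted p = 2.09e-05), PPL by 0.83 ± 0.10 (adjusted p = 0.000465) and DSP by 0.54 ± 0.097 (adjusted p = 0.00518). In the fit of 10 arrays, 3 members fell against 9.14% of all genes, with JUP at −0.87, PPL at −0.86 and DSP at −0.45. PKP2, a plakophilin of the desmosomal plaque, fell by 0.35 ± 0.091 (adjusted p = 0.0325) with all arrays and missed the threshold without them (−0.29, adjusted p = 0.0511). Its call was also lost when the parental untreated array 1 (adjusted p = 0.113) or 2 (0.126), or the array labelled parental estradiol 2 (0.0827) or 3 (0.0962), was left out alone, and after quantile normalization of the 12 arrays (0.178). CDH1 differed by −0.18 in the parental line (adjusted p = 0.323); leaving out both arrays gave −0.23 (adjusted p = 0.176).

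Within the knockout line, estradiol lowered JUP, PPL, DSP and CDH1, 4 members against 2.69% of all genes tested (233 rose and 530 fell, or 472 and 599 after quantile normalization). JUP fell by 0.75 ± 0.076 (adjusted p = 8.80e-05), PPL by 0.83 ± 0.10 (adjusted p = 0.000609), DSP by 0.44 ± 0.097 (adjusted p = 0.0236) and CDH1 by 0.44 ± 0.098 (adjusted p = 0.0245). With 10 arrays, 5 members fell against 4.26% of all genes: JUP (−0.73), PPL (−0.83), DSP (−0.54), CDH1 (−0.48) and the desmosomal cadherin DSC2 (−0.37 ± 0.086, adjusted p = 0.0143). With all 12 arrays, leaving out 1 array ended the DSP call for knockout untreated 1 (adjusted p = 0.111), 2 (0.0752) or 3 (0.0666) and for knockout estradiol 2 (0.0609) or 3 (0.101). After quantile normalization DSP was at −0.39 in the knockout line and just missed the threshold (adjusted p = 0.0504). The CDH1 call ended without knockout untreated 1 (adjusted p = 0.116), 2 (0.0794) or 3 (0.0661) or knockout estradiol 3 (0.105). JUP and PPL kept their calls in both lines in all 12 of these fits.

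**Figure D2:**
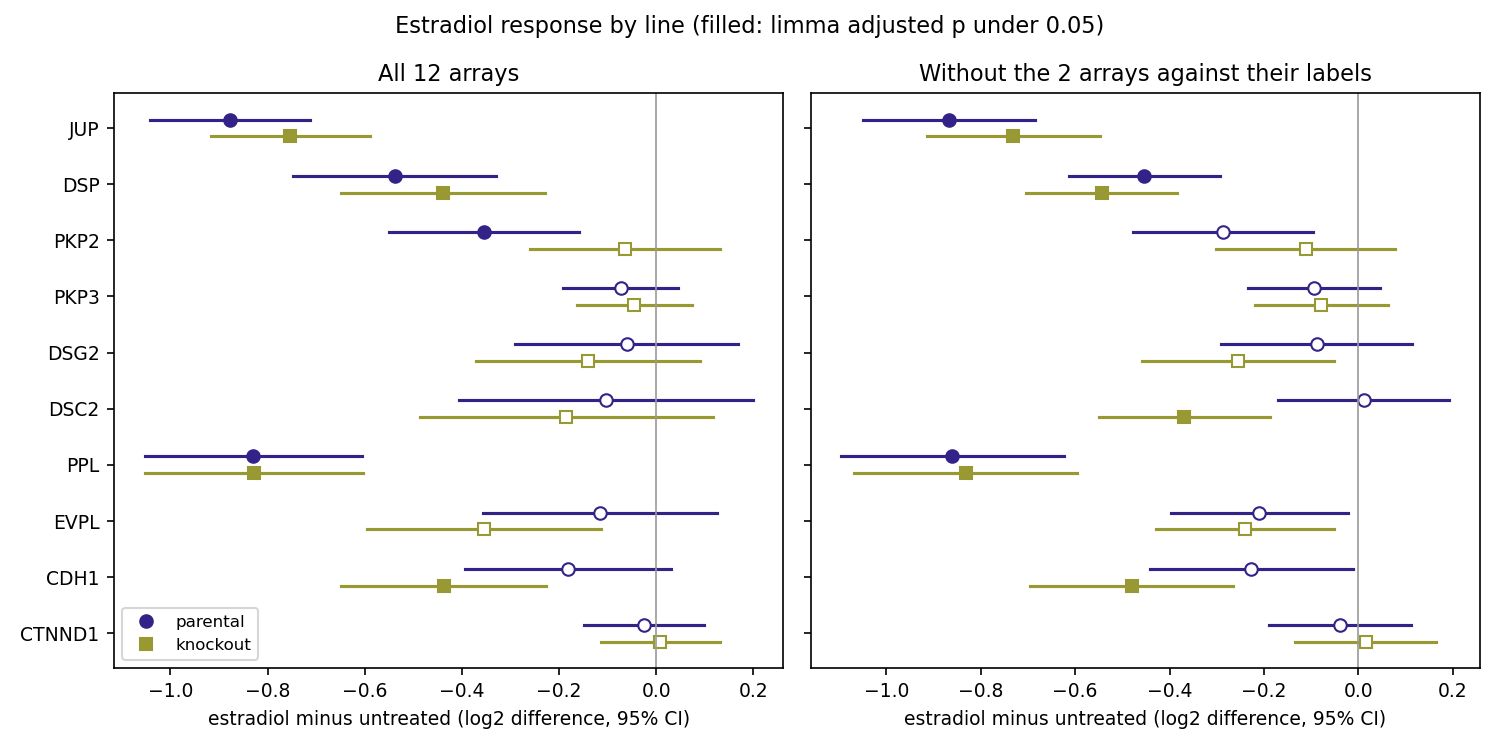
Log2 difference between estradiol and untreated cells (x axis) for each of the 10 genes (y axis) in the parental line (circles) and the knockout line (squares), with 95% confidence intervals from limma, for all 12 arrays at left and without the 2 arrays at right. Filled symbols have an adjusted p under 0.05; JUP, PPL and DSP are filled in both lines in both panels.

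The responses of the lines were also compared directly, as the interaction (knockout response minus parental response). Limma called 0 of the 10 members with all arrays, and 1 had an unadjusted p under 0.05, PKP2 (0.29, 95% interval 0.013 to 0.57, adjusted p = 0.449). Without the 2 arrays it called 0 again, with DSC2 at an unadjusted p of 0.00611 (−0.38, interval −0.64 to −0.12, adjusted p = 0.161). Over all genes tested, 0.00508% and 0.752% were called in the respective fits. For JUP the interaction was 0.12 (interval −0.11 to 0.36) and for PPL 0.0019 (−0.31 to 0.32), and differences within these intervals were not excluded. In the fit of 10 arrays the values were 0.14 (interval −0.12 to 0.40) for JUP and 0.028 (−0.30 to 0.36) for PPL. For CDH1, which passed the threshold in the knockout line and not in the parental line, the interaction was −0.26 (interval −0.55 to 0.043, adjusted p = 0.551), or −0.25 with 10 arrays (−0.56 to 0.051, adjusted p = 0.473), and a difference between the responses was therefore not shown.

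The second effect was that of the line. Averaged over untreated and estradiol cells, DSP and PKP2 were lower in the knockout line in the fit of 12 arrays, 2 members against 7.59% of all genes called in either direction. DSP differed by −0.26 ± 0.069 (adjusted p = 0.0382) and PKP2 by −0.30 ± 0.064 (adjusted p = 0.0246). Without the 2 arrays, DSC2 (−0.46 ± 0.060, adjusted p = 2.96e-05), DSP (−0.36 ± 0.054, adjusted p = 0.000102) and PKP2 (−0.35 ± 0.064, adjusted p = 0.000618) were lower and EVPL was higher (0.28 ± 0.063, adjusted p = 0.00326), 4 members against 20.8% of all genes. In the 12-array fit both calls were fragile: DSP kept its call in 3 and PKP2 in 5 of the 12 fits that left out 1 array, with adjusted p up to 0.106 for DSP and 0.0743 for PKP2, both without the array labelled knockout estradiol 3. After quantile normalization of the 12 arrays neither was called (adjusted p = 0.162 for DSP and 0.0657 for PKP2). That scaling changed the balance over all genes from 206 higher and 1286 lower in the knockout line to 345 and 232.

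PKP2 read 8.76, 8.76 and 8.66 in untreated parental cells and 8.37, 8.36 and 8.13 in untreated knockout cells. With estradiol it read 8.49, 8.40 and 8.24 on the arrays labelled parental and 8.32, 8.29 and 8.06 on those labelled knockout. It was the single member of the 10 that differed between the untreated lines in the 12-array fit (−0.44 ± 0.091, adjusted p = 0.0114, 1.36-fold lower), where 10.9% of all genes were called, 454 higher and 1698 lower. After quantile normalization 883 genes were higher and 699 lower, and EVPL was called higher (0.43, adjusted p = 0.026) beside PKP2 (−0.35, adjusted p = 0.0363). The PKP2 call missed the threshold without parental untreated 2 (adjusted p = 0.056) or knockout untreated 3 (adjusted p = 0.0552). Without the 2 arrays, which belong to neither untreated group, 4 members were called against 19.5% of all genes: PKP2 (adjusted p = 0.000900), DSP (−0.31, adjusted p = 0.00335) and DSC2 (−0.27, adjusted p = 0.0211) lower, and EVPL higher (0.30, adjusted p = 0.0133).

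DSC2, desmocollin 2, read 9.12, 8.89 and 8.85 in untreated parental cells and 8.67, 8.66 and 8.73 in untreated knockout cells. With estradiol the arrays labelled parental read 8.93, 9.002 and 8.62, and those labelled knockout 8.87, 8.24 and 8.39. The third parental value and the first knockout value are again those of the 2 arrays. With them the lines overlapped in estradiol (−0.35 ± 0.14, adjusted p = 0.895). Without them DSC2 was 1.56-fold lower in the knockout line (−0.65 ± 0.094, n = 2 per group, adjusted p = 0.000176). DSP (−0.40 ± 0.083, adjusted p = 0.00402) was the other member called in that comparison, 2 members against 9.79% of all genes. With all 12 arrays limma called 0% of all genes and 0 members there, and 2 members had an unadjusted p under 0.05, DSP and DSC2. The comparisons share groups: the untreated arrays enter both the line difference before estradiol and the estradiol responses.

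EVPL encodes envoplakin, which pairs with periplakin. It read 9.40, 9.10 and 9.06 in untreated parental cells and 9.49, 9.46 and 9.50 in untreated knockout cells. With estradiol it read 8.97, 8.98 and 9.25 on arrays labelled parental and 8.90, 9.21 and 9.28 on arrays labelled knockout. The array labelled knockout estradiol 1 was the lowest of the 12, and the array labelled parental estradiol 3 lay among the knockout values. Averaged over lines, EVPL differed by −0.24 ± 0.079 with estradiol (adjusted p = 0.0789) and fell by 0.22 ± 0.063 without the 2 arrays (adjusted p = 0.0226). The averaged line difference of EVPL was 0.18 with all arrays (adjusted p = 0.181), and that of PPL was 0.025 (interval −0.13 to 0.18).

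The other members gave no call in any of the 7 comparisons in either fit. DSG2, desmoglein 2, read between 11.10 and 11.69 on the 12 arrays, with an averaged estradiol difference of −0.10 (interval −0.26 to 0.062) and a line difference of −0.14 (−0.31 to 0.019). Leaving out both arrays gave −0.17 (adjusted p = 0.108) and −0.19 (adjusted p = 0.0609). PKP3 lay 0.029 to 0.23 above its array medians and CTNND1 between 0.011 below and 0.093 above them. At that level the arrays give little more than a bound. No change in these genes was called, and a change could have been missed.

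The share of the variation among arrays that went with each factor sets the effects side by side. With 12 arrays estradiol accounted for 93.2% of the sum of squares of JUP and 92.4% of that of PPL, and with 10 arrays for 91.9% and 91.2%. The line accounted for 3.01% and 0.08% of them with 12 arrays and for 3.56% and 0.16% with 10. For DSP the shares were 66.7% for estradiol and 19.4% for the line with 12 arrays, and 63.5% and 32.6% with 10. CDH1 had 57.9% for estradiol and 3.08% for the line with 12 arrays, and 64.5% and 1.08% with 10. PKP2 was the reverse, with 22.9% for estradiol and 45.7% for the line with 12 arrays, and 17.9% and 64.2% with 10. The line shares of DSC2 and EVPL moved most between the fits, from 40.6% to 66.0% for DSC2 and from 19.3% to 51.4% for EVPL. The share left within groups went from 49.7% to 9.34% for DSC2 and from 39.7% to 18.1% for EVPL. A share does not give the size of an effect. PKP3, which had no call, had 37.45% for estradiol with 12 arrays and 66.9% with 10, for a 10-array difference of only −0.086.

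**Figure D3:**
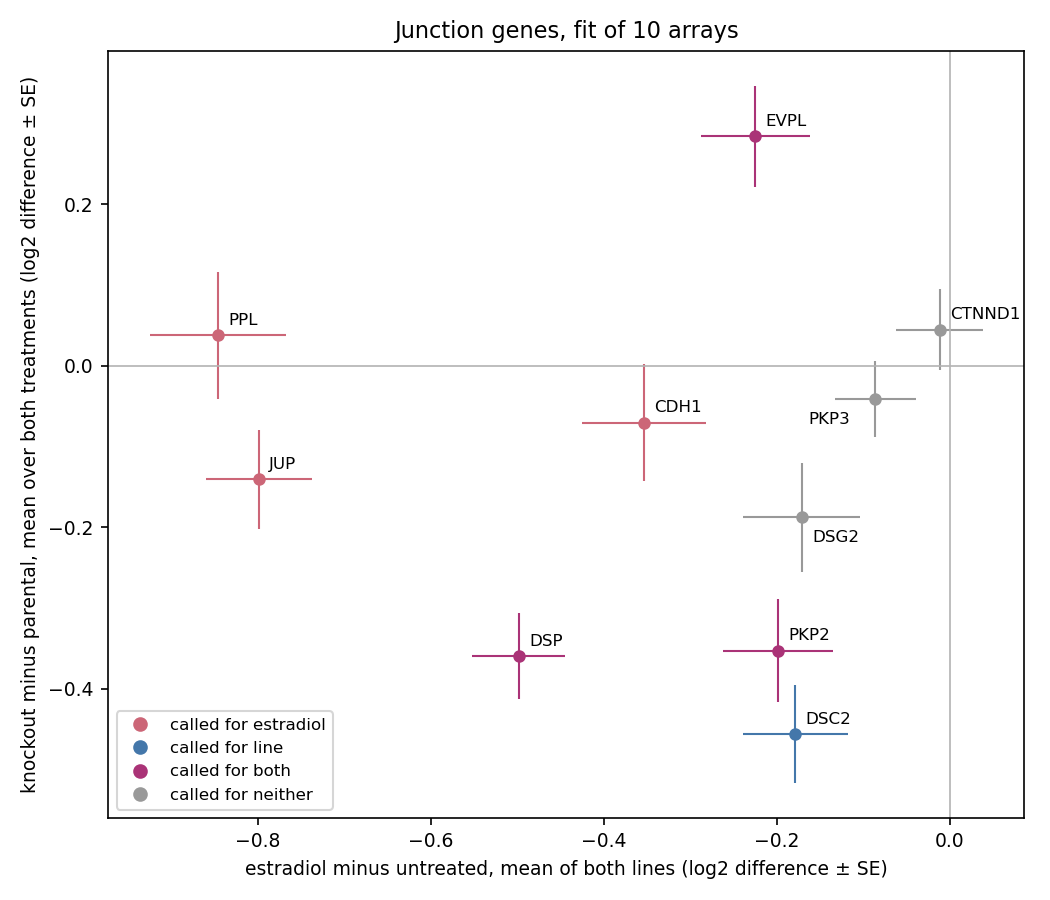
Averaged estradiol effect (x axis) against averaged line effect (y axis) for the 10 genes, as log2 differences with standard errors from the limma fit without the 2 arrays; colours show which effect had an adjusted p under 0.05. JUP, PPL and CDH1 are called for estradiol alone, DSC2 for the line alone, and DSP, PKP2 and EVPL for both, with EVPL on the other side of 0 for the line.

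Other genes of the same junctions were read in the same fits. Of 8 further desmosome genes 3 passed the filter, and DSG1, DSG3, DSG4, DSC1 and PKP1 were too dim to test. DSC3, a desmocollin, was lower in the knockout line (−0.31 ± 0.076, adjusted p = 0.0321), 1 of 3 against 7.59% of all genes called in either direction. Its values ran from 6.78 to 7.43, with an untreated knockout mean of 6.86 near the 6.82 cut. Without the 2 arrays PERP, a desmosomal membrane protein, was lower as well (−0.44 ± 0.094, adjusted p = 0.00259), 2 of 3 against 20.8% of all genes. For estradiol 0 of the 3 were called in either fit, with 0 and 1 at an unadjusted p under 0.05. Of 20 further adherens junction genes 14 were tested, and estradiol averaged over lines lowered 6 and raised 1 with 12 arrays, where 8.76% of all genes fell, and lowered 7 and raised 1 with 10, where 11.8% fell. The median difference of the 14 was −0.22 in both fits. CTNNA1, alpha-catenin, which links cadherins to actin, fell by 0.47 ± 0.047 (adjusted p = 3.11e-05), P-cadherin, CDH3, by 0.36 ± 0.086 (adjusted p = 0.0172) and CDH6, a kidney-type cadherin, by 0.41 ± 0.12 (adjusted p = 0.0457). The rise was in CTNND2 (0.27 ± 0.051, adjusted p = 0.00413), a neural relative of CTNND1, named after its values were seen. Its untreated means, 6.711 in parental and 6.825 in knockout cells, lay near the 6.82 cut, against 7.042 and 7.035 with estradiol. The arrays where CTNND2 was high thus helped it pass the filter, and its rise is no independent evidence. NECTIN3, an adhesion molecule listed under its older symbol PVRL3, was lower in the knockout line (−0.58 ± 0.12, adjusted p = 0.0237), as was CDH6 (−0.46 ± 0.12, adjusted p = 0.0388), the 2 of 14 called for the line with 12 arrays, against 7.59% of all genes in either direction. With 10 arrays, 5 of 14 were lower in the knockout line and 0 higher, against 20.8% of all genes.

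Regulators of epithelial junction genes were read from fixed lists too. Of 10 activators and epithelial splicing regulators, 7 were tested, and estradiol averaged over lines lowered 4 with 12 arrays and 5 with 10 and raised 0 in both fits, against 8.76% and 11.8% of all genes that fell. GRHL2, a grainyhead factor known to drive CDH1 and other junction genes, fell by 0.51 ± 0.061 (adjusted p = 0.000138) and ELF3, an epithelial ETS factor, by 0.56 ± 0.056 (adjusted p = 3.11e-05). Both were also lower in the knockout line, GRHL2 at −0.26 (adjusted p = 0.0286) and ELF3 at −0.23 (adjusted p = 0.0317), and 3 of 7 were lower there in all, against 7.59% of all genes called. With 10 arrays, 6 of 7 were lower in the knockout line, against 20.8% of all genes called in either direction and 2426 of 19670 lower, including EHF (−0.82 ± 0.055, adjusted p = 8.72e-09) and KLF5 (−0.37, adjusted p = 0.000145), which were not called for the line with all arrays. Of 8 repressors of CDH1, SNAI1, SNAI2, ZEB1, ZEB2 and TWIST2 did not pass the filter. Of the 3 tested, 0 were called for averaged estradiol with all arrays, with 1 at an unadjusted p under 0.05, and TCF3, an E-box-binding factor, fell with 10 arrays (−0.17, adjusted p = 0.0482). In the parental line TCF3 fell with estradiol in both fits (−0.31, adjusted p = 0.0256, and −0.27, adjusted p = 0.0361). For the averaged line effect TCF3 (−0.23 ± 0.054, adjusted p = 0.0281) was lower in the knockout line. TWIST1 (0.39 ± 0.056, adjusted p = 7.39e-05) and TCF4 (0.14, adjusted p = 0.0460) were higher there once the 2 arrays were left out, against 0.22 (adjusted p = 0.223) and 0.11 (adjusted p = 0.123) with all arrays.

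**Figure D4:**
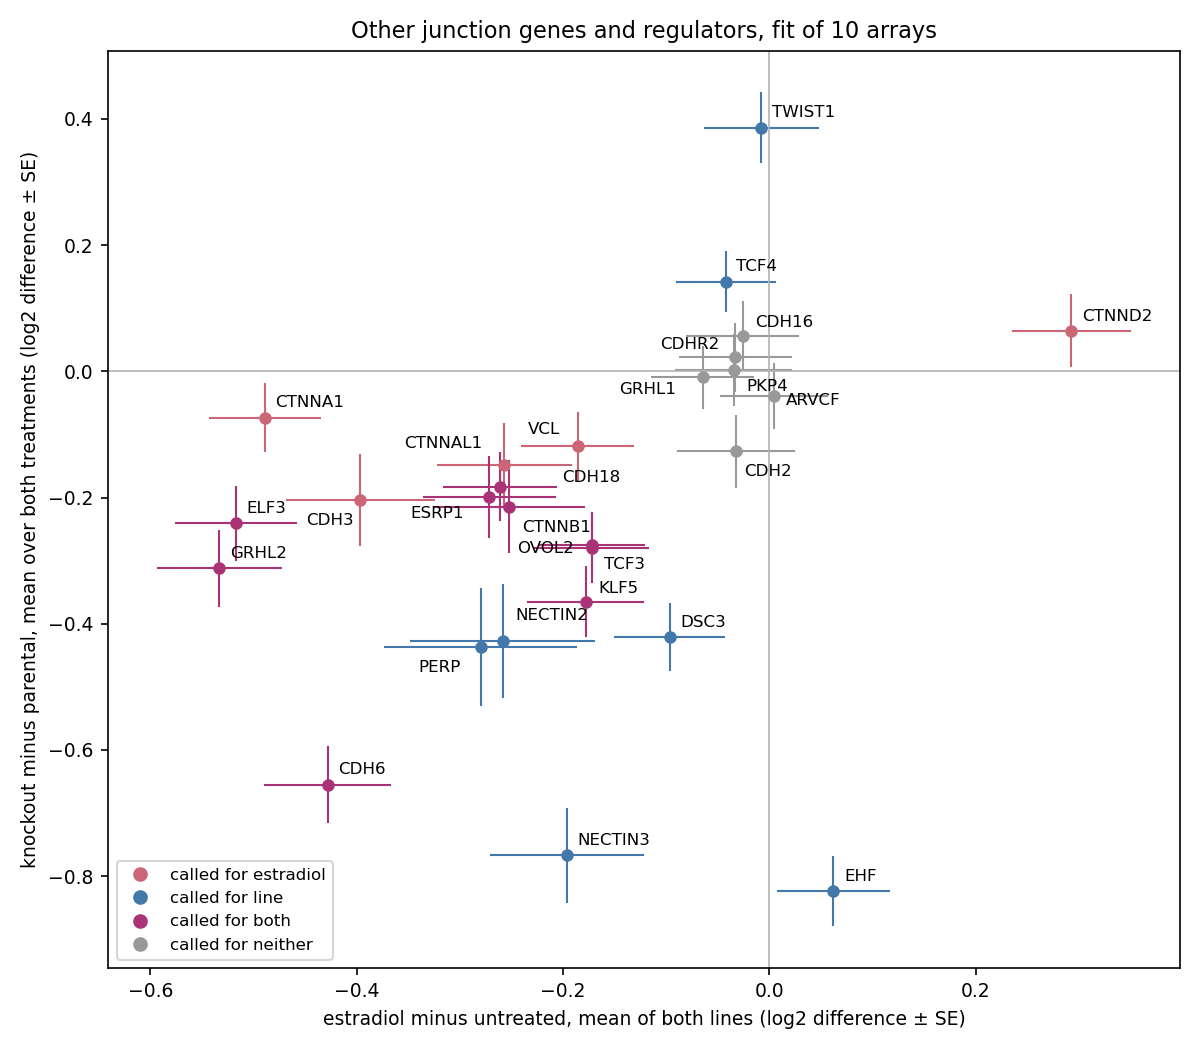
Averaged estradiol effect (x axis) against averaged line effect (y axis), as log2 differences with standard errors, for the tested genes of 4 lists: other desmosome genes, other adherens junction genes, repressors of CDH1, and activators and splicing regulators of epithelial genes, in the fit without the 2 arrays. CTNNA1, GRHL2 and ELF3 lie furthest to the left, between −0.49 and −0.53, and EHF and NECTIN3 lowest, at −0.82 and −0.77.

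Periplakin and envoplakin are also parts of the cornified envelope, and of 11 genes of that envelope 6 were tested. With all arrays 0 of the 6 were called for averaged estradiol, with 1 at an unadjusted p under 0.05. Without the 2 arrays SCEL fell (−0.15, adjusted p = 0.0486). SCEL read only 6.597 to 6.864 over all arrays, near the filter cut. Its mean was above that cut in untreated parental cells alone (6.845). It was 6.739 in untreated knockout cells, and 6.665 and 6.67 in parental and knockout cells with estradiol. The arrays where SCEL was high thus helped it pass the filter, and its fall is no independent evidence. Markers of epithelial and other cells also moved. Of 6 squamous markers 5 were tested, and KRT5, a basal keratin named after its values were seen, fell by 0.78 ± 0.052 (adjusted p = 7.80e-07). It was the single call among the 5 for averaged estradiol, against 8.76% of all genes that fell. The summed linear level of the 6 epithelial markers, CDH1 among them, ranged from 23739 to 29065 in untreated parental and 20492 to 22267 in untreated knockout cells, and from 18158 to 21469 and 15572 to 20273 with estradiol. All 6 were above the median of all values on average. For averaged estradiol 2 of 6 were called lower with all arrays and 3 with 10, where 8.76% and 11.8% of all genes fell. For the averaged line effect 2 and 4 of 6 were lower, against 7.59% and 20.8% of all genes called in either direction. The 8 fibroblast markers summed to 907 to 975 in untreated parental and 1044 to 1067 in untreated knockout cells. With estradiol they summed to 905 to 937 in parental and 903 to 948 in knockout cells. Averaged over all 12 arrays, 3 of the 8 were above the median of all values. Squamous markers (4 of 6 above it) summed to 840 to 891 and 837 to 896 in untreated parental and knockout cells and to 704 to 764 and 718 to 806 with estradiol. Endothelial markers (1 of 4 above it) summed to 501 to 513 and 480 to 495 untreated and 434 to 462 and 443 to 478 with estradiol, and immune markers (3 of 5) to 707 to 727 and 685 to 739 untreated and 675 to 720 and 670 to 703 with estradiol. A sum does not show which markers moved. COL1A1, named after its values were seen, averaged 7.615 in untreated parental and 8.132 in untreated knockout cells. Of the 4 fibroblast markers tested, 3 were higher in untreated knockout cells and 1 lower. For averaged estradiol with all arrays, 2 of 4 fibroblast, 1 of 1 endothelial and 0 of 3 immune markers tested fell, against 8.76% of all genes. The part of these markers in the junction gene results was not tested. In RNA from whole cultures, fewer cells carrying a transcript and less transcript per cell cannot be told apart.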

How the data were processed

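Biotin-labelled material from total RNA was hybridised to Illumina whole-genome arrays by direct hybridization, per the labels' protocols. The authors deposited 1 log2 value per identifier and array; background correction, normalization between arrays and the combining of probes are not given in the sources used here, and neither are slides or scan batches. All 34595 rows and 12 columns were read, with 0 missing values and 0 unmapped columns, and no further normalization was applied. Groups came from the sample titles.

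Group means were estimated in 1 linear model (limma 3.58.1, R 4.3.3) for the 19670 genes above 6.82 on 3 or more arrays (8 residual degrees of freedom, or 6 for 10 arrays), with empirical Bayes at default settings and Benjamini-Hochberg adjustment over all genes for each of 7 comparisons. Tests are two-sided, and the threshold is an adjusted p of 0.05. The averaged comparisons weight both lines, or both treatments, equally. The pipeline was tested on simulated data. The number of arrays limits the precision, and intervals are 95% intervals of the fit. Same-numbered arrays of different groups had residual correlations from −0.50 to 0.65, over 0.1 in 6 of 18 pairs. The largest in size (0.62, −0.50 and 0.65) were all between parental and knockout estradiol, the groups that hold the 2 arrays against their labels. The replicate numbers were not taken as pairs. Alternatives were 10 settings and 12 fits without 1 array. All members are named, and of each pathway list up to 4 called genes, those with the smallest p in any of the 7 comparisons of the 10-array fit; exceptions are marked. The members, lists and alternatives were chosen with earlier results of these data known. Older symbols of list genes were matched through the RefSeq gene table; array symbols can be old.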

Additional observations from a re-analysis of the deposited data

How the results depend on the processing

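The averaged estradiol calls of JUP, PPL, DSP and CDH1 held in all 22 alternative fits, with values from −0.85 to −0.71 for JUP, −0.90 to −0.75 for PPL, −0.54 to −0.40 for DSP and −0.37 to −0.26 for CDH1. The interaction called 0 members in every alternative. With all arrays, 1 member was called between the untreated lines, 0 between the lines in estradiol and 2 for the averaged line effect. Between the untreated lines the count was 2 with the filter at the 67th percentile, quantile normalization, median centring or the replicate block, 4 with array weights, 4 without the 2 arrays against their labels, 4 without them after quantile normalization and 5 without them with the replicate block. In estradiol it was 2, 4 and 2 under those last 3 settings. For the averaged line effect it was 0 with quantile normalization, 5 with array weights and 4 under each of those 3 settings. Over all genes, 454 were higher and 1698 lower between the untreated lines with all arrays, and 514 and 2551 with median centring. These counts were 883 and 699 after quantile normalization, 1176 and 2668 without the 2 arrays, and 1982 and 1694 with both changes. In estradiol 9.79% of all genes were called without the 2 arrays, and 20.8% for the averaged line effect. Those for the other filter, array weights, the replicate block and fits without 1 array are not given here. Leaving out single arrays gave 0 to 3 members between the untreated lines, 0 in estradiol, 3 to 4 for estradiol in parental cells, 2 to 4 in knockout cells, 4 to 5 for averaged estradiol and 0 to 4 for the averaged line effect. The cause of these moves was not tested. The replicate block gave 4 members for each single-line estradiol response and 5 for the average. Without the 2 arrays and after quantile normalization, CDH1 was higher in untreated knockout cells (0.25, adjusted p = 0.0318), and JUP, PPL and DSP remained lower with estradiol in both lines; with all 12 arrays quantile normalization ended the calls of DSP in the knockout line (adjusted p = 0.0504) and PKP2 in the parental line (adjusted p = 0.178). Over the members' single values, 1377 kept their direction and side of the threshold under an alternative, 37 lost a call, 62 gained one, 50 changed sign without a call in either fit and 0 reversed a call. The number of arrays, and for PKP3 and CTNND1 a level near the array medians, limits what could be detected.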
